A study of Mus musculus with 23 samples.

Results

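Tumours from mice that had received a plasmid for interleukin 27 were compared with tumours from mice that had received the empty plasmid, all of them exposed to cabozantinib outside the body. These are 4 of the 23 RNA sequencing libraries of the study, chosen by their titles, with 2 libraries for each plasmid. The tumours grew under the skin of both flanks in male C57/BL6 mice of 8 to 10 weeks from TC2Ras, a line made from the mouse prostate adenocarcinoma line TRAMP-C2 by a lentivirus carrying activated H-ras, so every tumour carries this oncogene. The plasmid, pTSTA-ctrl for the empty vector (EV) or pTSTA-IL27pepL for the IL-27 vector (IL27v), was given at 10 µg per muscle into the tibialis anterior muscle of the leg, with microbubbles and ultrasound. The IL-27 plasmid encodes the cytokine with a short peptide, pepL, and both plasmids carry the GAL4 and VP16 parts of the TSTA system. The cytokine was delivered from the leg and the RNA came from sections of the flank tumours. Neither the dose nor the duration of the cabozantinib exposure is stated in the labels. The labels do not tie replicates to separate animals, and p-values then reflect the spread between the study's replicate libraries, which may be technical. The stated aim of the sequencing was to look for more T-cell transcripts in tumours of the IL-27 mice, called hot, than in those of the empty vector mice, called cold.

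IL-27 is a cytokine made of the subunits p28 (Il27) and Ebi3. It binds a receptor of Il27ra and gp130 (Il6st) and signals through JAK kinases to STAT transcription factors, which drive many of the genes that interferons also induce. Cabozantinib inhibits several receptor tyrosine kinases, among them Met, the VEGF receptors and Axl, and is used against kidney, liver and thyroid cancers.

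The 4 libraries held 60570488 to 75461009 estimated counts. Levels are given as CPM, a gene's count scaled to a common library size with TMM factors, and 1 CPM stands for 64.2 to 74.0 counts. The tumours carried few transcripts of the prostate lineage. Pbsn, Hoxb13, Psca and Spink1 were at 0 in all 4 libraries, and Tmprss2 was under 0.15 CPM. The mesenchymal filament gene Vim was at 3144 to 6615 CPM, while Epcam, Cdh1 and Krt18 were each under 1 CPM. The epithelial keratin gene Krt8 lay between 19.6 and 27.8 CPM. Both IL27v libraries stood apart from both EV libraries in skeletal muscle transcripts. The 21 muscle genes summed to 81.8 and 44.3 CPM in EV replicates 1 and 2 and to 988 and 1076 CPM in IL27v replicates 1 and 2. The libraries also differed in how level depends on the GC content of the gene. The slope of log2 level on GC fraction was 0.04 and -3.01 in EV, against 1.43 and 5.07 in IL27v. Vector, muscle signal and GC trend move together across these 4 libraries and cannot be told apart.

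Replicates of 1 vector differed about as much as libraries of different vectors. The level differed over 4-fold between the IL27v replicates for 3208 of the 24440 genes tested (13.1%), and between the EV replicates for 2922 (12%). For the 4 pairs made of 1 library of each vector this count ran from 2874 to 4108. No gene passed the test across all genes, which was edgeR's quasi-likelihood test with Benjamini-Hochberg adjustment. The test took its spread from the replicates of all 23 libraries of the study, not from these 4 alone. It called 0 genes higher (0.0%) and 0 lower (0.0%) in IL27v at an adjusted p under 0.05. At an unadjusted p under 0.05 there were 1335 genes (5.46%), of which 959 were higher (3.92%) and 376 lower (1.54%). Without EV replicate 2 the test called 4 genes higher, and fitted on these 4 libraries alone it called 15 higher. DESeq2 on the same counts called 158 of 17806 genes higher (0.887%) and 39 lower (0.219%). The values below therefore describe these libraries. For the lists of genes, the count of members whose groups do not overlap can be read against the same share over all 24440 genes, which was 16.1% with both IL27v libraries above both EV libraries and 11.6% below.

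**Figure D1:**
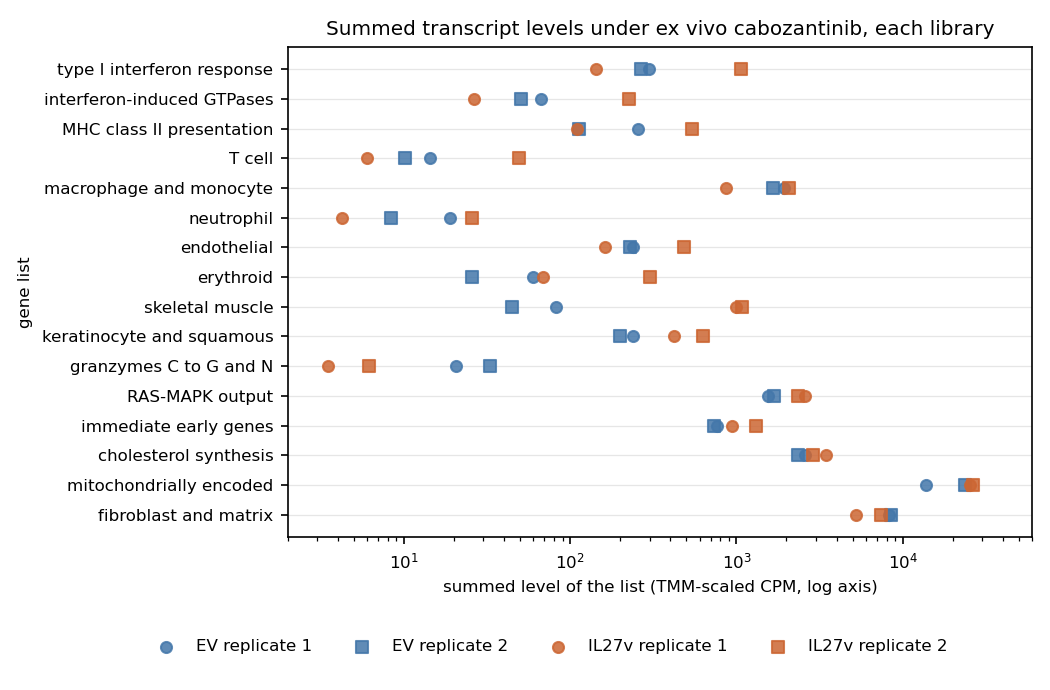
Summed level of 16 gene lists in each of the 4 cabozantinib libraries, in TMM-scaled CPM on a log axis, with EV in blue, IL27v in orange, replicate 1 as circles and replicate 2 as squares. For the interferon, GTPase, MHC class II, T cell, macrophage and monocyte, neutrophil and endothelial lists the EV libraries lie between the 2 IL27v libraries. The muscle list, by contrast, separates the vectors, with 44.3 and 81.8 CPM in EV and 988 and 1076 CPM in IL27v.

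Genes of the interferon response did not separate the vectors, and the 2 IL27v libraries lay on opposite sides of the EV libraries. The 30 type I interferon response genes summed to 299 and 266 CPM in EV replicates 1 and 2, to 144 CPM in IL27v replicate 1 and to 1068 CPM in IL27v replicate 2. For 29 of the 30 genes IL27v replicate 1 was below both EV libraries and IL27v replicate 2 was above both, an order seen for 5.85% of all genes tested. The opposite order, seen for 5.79% of all genes, occurred for 0 of the 30. The median change from IL27v replicate 1 to 2 was 3.49 on the log2 scale, and 24 of the 30 differed over 4-fold. The EV replicates differed by a median of -0.37, with 0 of the 30 over 4-fold. The median difference between vectors was 1.14 over the list and 0.00 over all genes. It was 2.06 without IL27v replicate 1 and -1.63 without IL27v replicate 2. None of the 30 genes passed the test. Replicates also lay apart in some groups outside cabozantinib alone. The list summed to 258 and 2040 CPM in IL27v with media and to 340 and 1307 CPM in EV with cabozantinib plus IL-27. In EV with media it was at 211 and 213 CPM.

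Irf7, a transcription factor that amplifies the interferon response, was at 21.9 and 13.9 CPM in the EV pair and 4.95 and 176 CPM in the IL27v pair. Its log2 difference of 2.34 ± 1.26 (SE) had an adjusted p of 0.91. Ifit3, whose product restricts viral RNA, stood at 10.96 and 7.49 CPM in EV against 1.78 and 80.3 CPM in IL27v. The ubiquitin-like modifier Isg15 had 8.70 and 4.22 CPM in EV, and 1.09 and 29.8 CPM in IL27v. Mx1, a dynamin-like antiviral GTPase, measured 2.36 and 3.50 CPM in EV against 0.27 and 17.4 CPM in IL27v. In each of these genes the lowest and the highest of the 4 libraries were both IL27v. Bst2, the tether that holds budding viruses, was the 1 gene of the list with both IL27v libraries above both EV libraries, at 13.6 and 62.2 CPM against 11.4 and 6.38 CPM.

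The interferon-induced GTPases, which attack the vacuoles of intracellular pathogens, followed the same order. Their 16 genes summed to 67.1 and 50.9 CPM in EV and to 26.4 and 225 CPM in IL27v. Of the 16, 13 had IL27v replicate 1 below and IL27v replicate 2 above both EV libraries, and 1 had both IL27v libraries above. Gbp2 was at 18.99 and 9.09 CPM in the EV pair and 3.43 and 58.3 CPM in the IL27v pair. Gbp3 had 8.86 and 5.94 CPM in EV, and 3.32 and 24.3 CPM in IL27v. Irgm1 spanned less, with 14.6 and 12.3 CPM in EV against 9.96 and 42.1 CPM in IL27v. The sign of the median of both lists followed which IL27v library was kept. For the GTPases the median was 1.86 without IL27v replicate 1 and -1.19 without IL27v replicate 2.

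The promoters of these genes were read because their transcripts moved together. A promoter here is the 250 bases before and 50 after a RefSeq transcription start (GRCm38.p6), and 14349 of the 24440 genes had at least 1, with 18103 promoters in all. The core of the interferon-stimulated response element was searched as GAAANNGAA on both strands. It was found in 10 of the 11 GTPase promoters (90.9%), which cover 10 genes, in 14 of the 23 promoters of the type I interferon list (60.9%) and in 7.65% of all promoters. Among genes with an unadjusted p under 0.05 it was found in 5.94% of promoters of those higher in IL27v. For those lower it was found in 6.43%. Both lists were made of genes known to respond to interferon, so their shares do not bear on the vectors. A match is a description of the letters and not a measured binding site. Shown are Gbp2 (chr3:142620413-142620712, plus strand), Gbp3 (chr3:142559794-142560093, plus strand) and Irgm1 (chr11:48871371-48871670, minus strand), 5′ to 3′ on the gene's strand, with the matches in capitals. In Gbp2 and Gbp3 the matches lie on the other strand, so their capitals are the reverse complement of the motif. Gbp3 has a second listed promoter without a match.
Gbp2: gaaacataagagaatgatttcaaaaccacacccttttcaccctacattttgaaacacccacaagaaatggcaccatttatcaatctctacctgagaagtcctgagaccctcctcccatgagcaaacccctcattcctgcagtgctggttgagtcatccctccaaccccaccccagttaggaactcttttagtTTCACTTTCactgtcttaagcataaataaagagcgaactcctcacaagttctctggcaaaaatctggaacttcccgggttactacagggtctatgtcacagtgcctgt
Gbp3: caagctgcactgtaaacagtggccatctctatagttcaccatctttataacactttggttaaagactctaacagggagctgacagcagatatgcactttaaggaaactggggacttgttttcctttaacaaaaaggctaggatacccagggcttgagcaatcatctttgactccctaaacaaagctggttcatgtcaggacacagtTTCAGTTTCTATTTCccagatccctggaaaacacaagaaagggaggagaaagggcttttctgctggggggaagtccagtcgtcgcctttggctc
Irgm1: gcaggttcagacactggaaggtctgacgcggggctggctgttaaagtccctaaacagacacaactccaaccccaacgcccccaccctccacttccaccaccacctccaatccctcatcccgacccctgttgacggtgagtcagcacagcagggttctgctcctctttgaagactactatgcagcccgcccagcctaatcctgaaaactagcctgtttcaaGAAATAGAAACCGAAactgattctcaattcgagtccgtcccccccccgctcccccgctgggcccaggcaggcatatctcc
In Gbp3 and Irgm1 there were 2 overlapping matches, and in Gbp2 there was 1.

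Antigen presentation genes were split. Of the 12 MHC class II genes none had groups that did not overlap in either direction. H2-Eb1, a class II beta chain, was at 4.19 and 0.96 CPM in EV against 3.38 and 34.1 CPM in IL27v. Cd74, the invariant chain that guides class II molecules, stood at 39.9 and 7.51 CPM in the EV pair and 17.4 and 147.5 CPM in the IL27v pair. Of 17 class I pathway genes, 2 had both IL27v libraries above EV and 4 had both below. H2-K1, a classical class I heavy chain, was at 132 and 66.5 CPM in EV against 87.4 and 310 CPM in IL27v. The chaperone gene Pdia3 was at 1689 and 1391 CPM in the EV pair and 1031 and 1062 CPM in the IL27v pair. Canx, another chaperone of class I folding, was at 703 and 993 CPM in EV against 696 and 463 CPM in IL27v.

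T-cell transcripts were low in all 4 libraries, and the IL27v replicates again lay on either side of EV. The 22 T-cell genes summed to 14.3 and 10.2 CPM in EV, to 5.97 CPM in IL27v replicate 1 and to 49.1 CPM in IL27v replicate 2. Of the 22, 8 had IL27v replicate 1 below and replicate 2 above both EV libraries, 4 had both IL27v libraries above and 1 had both below. Cd3e, part of the CD3 signalling complex, was at 0.32 and 0.18 CPM in the EV pair and 0 and 0.33 CPM in the IL27v pair. The co-receptor gene Cd8a was at 0.19 and 0.06 CPM in EV against 0 and 0.12 CPM in IL27v. Cd4 was at 0.57 and 0.18 CPM in the EV pair and 0.17 and 1.95 CPM in the IL27v pair. Trac, the constant region of the T-cell receptor alpha chain, was at 0 in both EV libraries and at 0.24 and 2.07 CPM in IL27v. Taking 3 counts per library as the floor, its mean was at least 27.2-fold higher in IL27v. Its adjusted p was 0.63 by edgeR and 0.012 by DESeq2. In a bulk sample more T cells and more RNA per T cell cannot be told apart.

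Chemokine and myeloid genes showed this order in part. The T-cell-attracting group, which includes Cxcl9 and Cxcl10, summed to 68.4 and 52.6 CPM in EV, and to 22.6 and 132 CPM in IL27v. Of its 9 tested genes 6 had IL27v replicate 1 below and replicate 2 above both EV libraries, and 0 had groups that do not overlap. Cxcl9 itself was at 1.22 and 1.36 CPM in EV against 0.06 and 4.59 CPM in IL27v. Cxcl10 was at 22.9 and 20.4 CPM in the EV pair and 5.41 and 43.2 CPM in the IL27v pair. Genes of monocyte-attracting chemokines summed to 598 and 470 CPM in EV, and to 395 and 1068 CPM in IL27v. Of these 13 genes 9 followed the order, 1 had both IL27v libraries above EV and 0 had both below. Macrophage and monocyte genes summed to 1931 and 1659 CPM in EV, and to 860 and 2076 CPM in IL27v. Here 8 of 20 genes followed the order, 1 lay above in both IL27v libraries and 2 below. The neutrophil-attracting chemokines did not share it as a sum, with 92.6 and 57.2 CPM in EV against 80.7 and 332 CPM in IL27v. Of their 8 tested genes 3 followed the order, 2 lay above and 1 below. Cxcl1, a neutrophil attractant, had both IL27v libraries above EV, at 46.6 and 181 CPM against 37.8 and 28.7 CPM. Its log2 difference was 1.78 ± 0.79 (SE), with an adjusted p of 0.89. The neutrophil genes themselves summed to 18.8 and 8.35 CPM in EV and to 4.24 and 25.6 CPM in IL27v, and Mpo was at 0 in all 4. Of 14 neutrophil genes 4 followed the order, 2 lay above and 0 below. Endothelial genes (237 and 230 CPM in EV, 161 and 482 CPM in IL27v) and red-cell genes (59.8 and 25.6 CPM in EV, 68.9 and 302 CPM in IL27v) were also highest in IL27v replicate 2. Of 17 endothelial genes 6 followed the order, 2 lay above and 1 below, and of 7 red-cell genes 1 followed it, 2 lay above and 1 below. The part of these cell types in the interferon values was not tested.

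Other immune lists differed from this order to varying degrees. Genes of NF-kB and inflammatory cytokines summed higher in both IL27v libraries, at 1010 and 1114 CPM against 778.5 and 918 CPM in EV, with 5 of 22 genes above, 1 below and 5 in the order of the interferon genes. Dendritic cell genes also summed higher in both, at 225 and 341 CPM against 211 and 88.0 CPM in EV, with 2 of 13 genes above, 1 below and 3 in that order. The members had no common direction, with a positive fitted difference for 7 of the 13 and a negative one for 6. Immune checkpoint genes, which restrain T cells, summed to 133 and 125.5 CPM in EV and to 96.9 and 222 CPM in IL27v, with 3 of 14 above, 0 below and 6 in that order. Natural killer and cytotoxic genes summed to 93.5 and 67.9 CPM in EV and to 46.9 and 81.6 CPM in IL27v, with 0 of 14 above, 2 below and 4 in that order. B-cell genes were low, at 1.46 and 4.47 CPM in EV and 1.43 and 4.65 CPM in IL27v, with 1 of 11 above and 1 below. Mast cell genes summed to 11.9 and 7.51 CPM in EV and to 10.3 and 29.2 CPM in IL27v, with 2 of 8 above and 0 below.

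**Figure D2:**
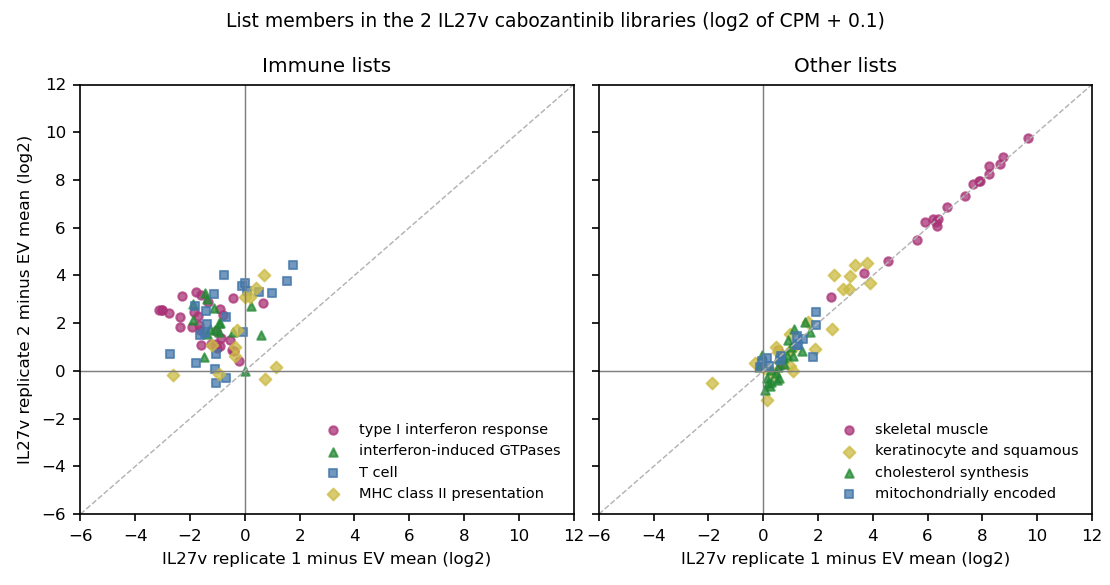
Each point is 1 list member, with its level in IL27v replicate 1 (x) and IL27v replicate 2 (y) relative to the mean of the 2 EV libraries, as log2 of CPM plus 0.1, and the dashed line marks equal departure. Immune genes (left) lie mostly above 0 on y and below 0 on x, whereas muscle genes (right) lie along the dashed line in both libraries.

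No gene of the IL-27 pathway passed the test between the vectors. Il27 was at 0.12 and 0 CPM in EV against 0.06 and 0 CPM in IL27v, and Ebi3 at 0.50 and 0.06 CPM in the EV pair and 0 and 0.87 CPM in the IL27v pair. Neither subunit was above 1 CPM in any of the 4 tumour libraries, and the plasmid had been given into the leg. The receptor gene Il27ra was at 2.30 and 5.47 CPM in EV against 2.44 and 4.62 CPM in IL27v, a log2 difference of -0.14 ± 0.61 (SE). Il6st, the shared signalling chain, was at 81.3 and 174 CPM in the EV pair and 149 and 93.8 CPM in the IL27v pair. The feedback inhibitor gene Socs3 was at 51.3 and 36.6 CPM in EV against 34.3 and 121 CPM in IL27v. Among the 17 genes of receptor and JAK-STAT signalling, 2 had both IL27v libraries above both EV libraries and 0 had both below.

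Granzymes C to G lay lower in both IL27v libraries. All 5 tested genes of this cluster, serine proteases of activated cytotoxic cells, had both IL27v libraries below both EV libraries, where 11.6% of all genes did. Their summed level, with that of Gzmn, was 20.5 and 32.9 CPM in EV, and 3.47 and 6.16 CPM in IL27v. The low level in IL27v was not limited to cabozantinib alone. In the other conditions this sum had a median of 32.2 CPM in EV (7.44 to 74.05) and 3.91 CPM in IL27v (0 to 21.9), ranges that overlap. Gzmd was at 4.32 and 9.15 CPM in the EV pair and 0.55 and 1.35 CPM in the IL27v pair. This is a log2 difference of -2.83 ± 1.19 (SE), with an adjusted p of 0.87. Gzmc was at 9.11 and 7.92 CPM in EV against 0.63 and 2.63 CPM in IL27v. The list's median was -2.40, and leaving out single libraries it ran from -2.12 without EV replicate 2 to -3.62 without IL27v replicate 2. These genes are close copies that lie together, so reads may be split among them. Gzmb, the common cytotoxic granzyme, did not share their order, with 2.45 and 1.63 CPM in EV against 0.06 and 8.78 CPM in IL27v.

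Skeletal muscle genes had the largest median difference between the vectors among the 45 lists. Of the 21 genes, 20 had both IL27v libraries above both EV libraries, and 18 had an unadjusted p under 0.05, but none passed edgeR's adjusted threshold. DESeq2 called 15 of them higher. Ckm, the muscle creatine kinase, was at 0 in both EV libraries and at 80.8 and 87.0 CPM in IL27v, at least 1980-fold higher with the same floor. Its adjusted p was 0.44 by edgeR and 1.317e-21 by DESeq2. Acta1, skeletal alpha-actin, stood at 0.15 and 0.12 CPM in the EV pair and 100.4 and 115.6 CPM in the IL27v pair. Myh4, the myosin heavy chain of fast fibres, had 0.49 and 0.36 CPM in EV, against 205 and 211 CPM in IL27v. The 2 IL27v replicates differed little here. The list's median was 8.09, or 7.50 with genes at 0 in a group set to their bound. In the other conditions the same list summed to 30.3 to 689.8 CPM in EV and to 65.2 to 1164 CPM in IL27v, so muscle transcripts were neither limited to IL27v nor high in all of its libraries. With media alone the list was at 53.04 and 37.6 CPM in EV against 839 and 701 CPM in IL27v. With cabozantinib plus IL-27 the EV libraries themselves held 689.8 and 595 CPM.

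Keratinocyte genes were more often higher in IL27v under cabozantinib, with sums of 238 and 199 CPM in EV against 422 and 630 CPM in IL27v. In media the order was the opposite, with 179 and 490 CPM in EV against 95.8 and 16.9 CPM in IL27v. Over all the other conditions the sums ran from 80.9 to 1897 CPM in EV and from 16.9 to 6970 CPM in IL27v. Of 22 genes, 14 had both IL27v libraries above both EV libraries and 1 had both below. Krt14 and Krt5, the keratins of the basal skin layer, were at 0 in both EV libraries. Krt14 was at 0.92 and 2.06 CPM in IL27v, and Krt5 at 0.78 and 0.97 CPM. Sprr1b, a protein of the cornified envelope, was at 0.05 and 0.12 CPM in the EV pair and 2.62 and 2.27 CPM in the IL27v pair. The fitted median of 4.92 came to 1.28 once genes at 0 in a group were set to their bound, so its size depends on that choice. The muscle genes Ckm, Acta1 and Myh4 and the skin genes Krt14, Krt5 and Sprr1b were thus at or near 0 in the EV cabozantinib libraries. The lists as a whole were not, at 81.8 and 44.3 CPM for muscle and 238 and 199 CPM for keratinocyte genes. The skin genes named make up little of the keratinocyte sums. How much of any other vector difference follows these tissues was not tested.

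The 15 genes of smallest p higher in IL27v mixed muscle genes with stress and immediate early genes. Muscle members were Ldb3, a protein of the Z-disc, Actn3, the alpha-actinin of fast fibres, and Casq1, the calcium store protein of the sarcoplasmic reticulum. Casq1 was at 0 in both EV libraries and at 12.1 and 14.8 CPM in IL27v. First by p was Tpgs1 (chr10:79669369-79676127), a subunit of the tubulin polyglutamylase complex. It was at 0.47 and 0.25 CPM in EV against 12.2 and 20.7 CPM in IL27v, a log2 difference of 5.50 ± 0.88 (SE) with an adjusted p of 0.24. Cck, which encodes the peptide hormone cholecystokinin, was at 3.00 and 3.57 CPM in the EV pair and 65.5 and 27.2 CPM in the IL27v pair. Hexim1, an inhibitor of the elongation kinase P-TEFb, was at 11.5 and 9.94 CPM in EV against 32.1 and 28.9 CPM in IL27v. The histone H2B gene Hist1h2bc was at 7.82 and 4.64 CPM in the EV pair and 57.3 and 48.3 CPM in the IL27v pair. Tnk2, a cytoplasmic tyrosine kinase, was at 25.4 and 34.9 CPM in EV against 124 and 118 CPM in IL27v. All 15 were chosen to have groups that do not overlap. With the GC trend of each library modelled, the log2 difference of Tpgs1 was 4.21.

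**Figure D3:**
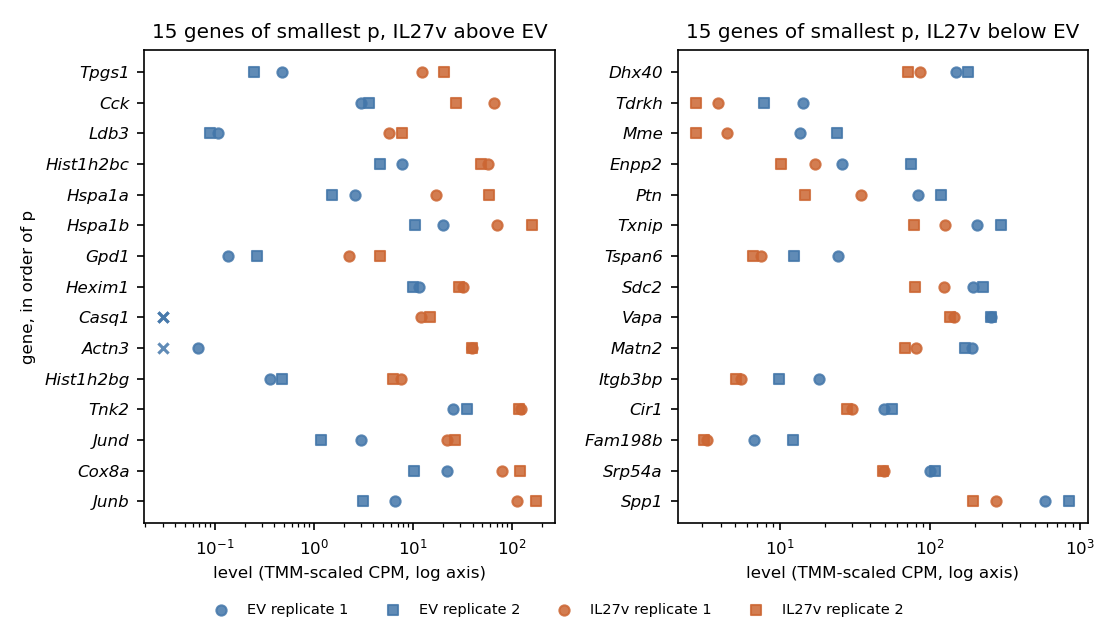
Level of the 15 genes of smallest p in each direction, in TMM-scaled CPM on a log axis, with 1 row per gene, EV in blue and IL27v in orange, and values of 0 drawn as crosses at the left edge. The groups do not overlap in any row because the genes were chosen for that before being ordered by p. No gene passed the adjusted threshold in edgeR.

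Immediate early genes, which answer stimuli without new protein synthesis, were more often higher in IL27v. Of 20 such genes, 12 had both IL27v libraries above both EV libraries, against 16.1% of all genes, and 1 had both below. Junb (chr8:84974484-84978718), which encodes an AP-1 subunit, was at 6.53 and 3.17 CPM in the EV pair and 111.5 and 174 CPM in the IL27v pair. Its log2 difference was 4.88 ± 1.08 (SE), with an adjusted p of 0.38, and came to 3.82 with the GC trend modelled. The related gene Jund was at 3.00 and 1.17 CPM in EV against 22.3 and 26.7 CPM in IL27v, and Jun at 37.7 and 29.5 CPM in the EV pair and 62.8 and 117 CPM in the IL27v pair. Ier2 stood at 5.72 and 2.95 CPM in EV against 37.2 and 47.1 CPM in IL27v. Fos and Egr1, the members most often used as activity markers, differed less. Fos was at 11.5 and 11.8 CPM in the EV pair and 12.6 and 25.9 CPM in the IL27v pair, and Egr1 at 70.5 and 90.4 CPM in EV against 120.4 and 126 CPM in IL27v. The list's median was 0.58, and 0.24 with the GC trend modelled. Under docetaxel the list summed to 1255 and 1261 CPM in EV against 2250 and 1993 CPM in IL27v. In media it summed to 952 and 1030 CPM in EV against 806 and 898 CPM in IL27v. Junb was also higher in IL27v under docetaxel, anti-PD-L1 and cabozantinib plus IL-27, and lower in media.

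Targets of the RAS-MAPK pathway, which the H-ras oncogene of these tumours feeds, were mixed. Of 19 genes, 4 had both IL27v libraries above both EV libraries and 1 had both below. Ier3, a gene induced by growth factors and stress, was at 225 and 157 CPM in the EV pair and 614 and 758 CPM in the IL27v pair. Its log2 difference was 1.85 ± 0.42 (SE), with an adjusted p of 0.40. Fosl1, an AP-1 subunit that accumulates under sustained ERK activity, was at 182 and 86.0 CPM in EV against 330.1 and 382 CPM in IL27v. Dusp6 and Spry4, feedback inhibitors of the pathway, had groups that overlap. Dusp6 was at 56.9 and 78.6 CPM in the EV pair and 106.6 and 58.5 CPM in the IL27v pair, and Spry4 at 49.0 and 115 CPM in EV against 102 and 65.5 CPM in IL27v.

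Among heat shock genes the inducible Hsp70 pair stood out. Hspa1a was at 2.58 and 1.53 CPM in the EV pair and 17.1 and 58.1 CPM in the IL27v pair, a log2 difference of 4.19 ± 0.83 (SE) with an adjusted p of 0.33. Hspa1b was at 20.1 and 10.5 CPM in EV against 70.2 and 159.7 CPM in IL27v, a log2 difference of 2.91 ± 0.58 (SE). The list of 18 had no common direction, with 6 genes above, 4 below and a median of 0.03. Hsp90aa1, a constitutively abundant chaperone that is also heat inducible, was at 2103 and 2138 CPM in the EV pair and 1655 and 1310 CPM in the IL27v pair. Dnajb1, the Hsp40 partner of Hsp70, was at 152 and 94.7 CPM in EV against 96.0 and 211 CPM in IL27v. The promoters of the pair are shown because the genes are near copies, which also makes the split of their reads uncertain. Hspa1a (chr17:34972107-34972406) and Hspa1b (chr17:34959189-34959488) lie on the minus strand, and their 300 bases differ at 4 positions. Capitals mark the heat shock element letters GAANNTTC, which read the same on both strands.
Hspa1a: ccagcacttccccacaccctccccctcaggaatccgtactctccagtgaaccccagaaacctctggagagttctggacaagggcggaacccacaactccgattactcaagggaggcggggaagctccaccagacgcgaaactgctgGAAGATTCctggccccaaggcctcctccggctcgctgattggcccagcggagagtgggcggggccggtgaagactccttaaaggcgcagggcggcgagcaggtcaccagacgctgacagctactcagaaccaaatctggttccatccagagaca
Hspa1b: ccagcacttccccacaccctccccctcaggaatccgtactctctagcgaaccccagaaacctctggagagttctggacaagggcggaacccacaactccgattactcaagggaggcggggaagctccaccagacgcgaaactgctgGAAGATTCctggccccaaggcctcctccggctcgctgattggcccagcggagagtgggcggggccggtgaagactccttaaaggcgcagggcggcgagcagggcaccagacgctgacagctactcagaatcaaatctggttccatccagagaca
These letters were found in 11 of the 18 promoters of the heat shock list (61.1%), which cover 10 of 13 genes, and in 6.15% of all promoters.

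The 15 genes of smallest p lower in IL27v included secreted and cell surface proteins. Mme (chr3:63241537-63386030), which encodes the peptidase neprilysin, was at 13.6 and 23.9 CPM in the EV pair and 4.40 and 2.76 CPM in the IL27v pair. Its log2 difference was -2.39 ± 0.59 (SE), with an adjusted p of 0.45. Ptn, the heparin-binding growth factor pleiotrophin, was at 83.4 and 117.6 CPM in EV against 34.4 and 14.6 CPM in IL27v. Enpp2, the enzyme autotaxin that makes lysophosphatidic acid, was at 25.8 and 74.4 CPM in the EV pair and 17.02 and 10.2 CPM in the IL27v pair. Spp1, the secreted matrix protein osteopontin, was at 587 and 847 CPM in EV against 274 and 194 CPM in IL27v. The glucose-responsive gene Txnip was at 204 and 299 CPM in the EV pair and 125 and 77.7 CPM in the IL27v pair. Sdc2, a heparan sulfate proteoglycan of the cell surface, was at 192 and 226 CPM in EV against 124 and 78.8 CPM in IL27v. Dhx40, an RNA helicase, was first by p, with 149.5 and 180.4 CPM in EV, and 86.3 and 71.1 CPM in IL27v. These 15 were likewise chosen to have groups that do not overlap.

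For 2 of these 15 genes the order held over all 23 libraries, the 4 that chose them included. Mme lay between 7.29 and 23.9 CPM in all 12 EV libraries and between 1.46 and 6.54 CPM in all 11 IL27v libraries. Tdrkh (chr3:94413273-94434668), a Tudor domain protein of the piRNA pathway, lay between 5.88 and 14.2 CPM in EV and between 2.41 and 4.46 CPM in IL27v. Of all 24440 genes, 6 (0.0245%) had all IL27v libraries below all EV libraries and 7 (0.0286%) had them all above. The 15 genes higher in IL27v included none of the 7.

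Matrix genes leaned lower in IL27v. Of 20 fibroblast and matrix genes, 9 had both IL27v libraries below both EV libraries, against 11.6% of all genes, and 1 had both above. Dcn, the proteoglycan decorin, was at 1138 and 1535 CPM in the EV pair and 761 and 905 CPM in the IL27v pair. Lum, the related lumican, was at 59.5 and 62.9 CPM in EV against 33.2 and 33.5 CPM in IL27v. Postn, periostin, was at 455 and 745 CPM in the EV pair and 388 and 299.7 CPM in the IL27v pair. Col1a1, the main fibrillar collagen chain, overlapped, at 999.7 and 614 CPM in EV against 609 and 1031 CPM in IL27v. The exception in the other direction was Loxl1, a collagen crosslinking enzyme, at 31.0 and 13.6 CPM in the EV pair and 50.5 and 82.0 CPM in the IL27v pair.

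Transcripts encoded in the mitochondrial genome leaned higher in IL27v. All 13 protein-coding genes had a positive difference, and 7 had both IL27v libraries above both EV libraries. The median was 0.83. mt-Nd6, the subunit encoded on the opposite strand to the others, was at 101 and 142 CPM in EV against 456 and 660.2 CPM in IL27v, a log2 difference of 2.20 ± 0.57 (SE) with an adjusted p of 0.50. mt-Nd5 was at 248.5 and 711 CPM in the EV pair and 1594 and 1590 CPM in the IL27v pair, and mt-Nd1 at 582 and 1093 CPM in EV against 2197 and 2021 CPM in IL27v. mt-Co1, a subunit of cytochrome c oxidase, was not separated, at 5722 and 9385 CPM in the EV pair and 8469 and 8387 CPM in the IL27v pair. Much of the gap came from EV replicate 1, since the median was 0.08 without it and 1.46 without EV replicate 2. Muscle is rich in mitochondria, and the part of the muscle signal in these values was not tested.

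Lipid synthesis genes under the SREBP factors leaned higher in IL27v. Of 24 genes of the cholesterol synthesis list, 12 had both IL27v libraries above both EV libraries, against 16.1% of all genes, and 0 had both below. Srebf2, the transcription factor that drives sterol synthesis, was at 148 and 150.4 CPM in the EV pair and 272 and 234 CPM in the IL27v pair. Fasn, fatty acid synthase, was at 204 and 225 CPM in EV against 454 and 326 CPM in IL27v. Hmgcs1, an early enzyme of the pathway, overlapped, at 147 and 138 CPM in the EV pair and 148 and 80.9 CPM in the IL27v pair. The list's median of 0.44 was 0.27 with the GC trend modelled.

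The kinases that cabozantinib blocks were not separated by vector as a list. Of 18 tested genes for these kinases and their ligands, 4 had both IL27v libraries above both EV libraries and 4 had both below. Met, the receptor for hepatocyte growth factor, was at 48.4 and 52.7 CPM in EV against 46.8 and 23.8 CPM in IL27v. Its ligand gene Hgf was at 1.81 and 3.67 CPM in the EV pair and 1.21 and 0.22 CPM in the IL27v pair. Kdr, the main VEGF receptor of blood vessels, was at 6.08 and 6.16 CPM in EV against 4.79 and 8.17 CPM in IL27v. Axl, a receptor linked to invasion, was at 456.5 and 529.9 CPM in the EV pair and 566 and 425 CPM in the IL27v pair. Its log2 difference was 0.01 ± 0.24 (SE).

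Genes of cell death and division showed single differences rather than shifts of whole lists. Cdkn1a, the p53-induced cell cycle inhibitor p21, was at 104 and 129.6 CPM in EV against 162 and 307 CPM in IL27v, a log2 difference of 1.01 ± 0.34 (SE) with an adjusted p of 0.68. Bbc3, the BH3-only death protein Puma, was at 0.36 and 0.37 CPM in the EV pair and 4.31 and 3.36 CPM in the IL27v pair. Mdm2, another p53 target, overlapped, at 60.0 and 95.6 CPM in EV against 98.4 and 67.6 CPM in IL27v. Of the 20 p53 targets 5 had both IL27v libraries above both EV libraries and 1 had both below. Of 20 mitosis genes 2 lay above and 5 below. Mki67, the proliferation marker, was at 178 and 221 CPM in the EV pair and 159.9 and 94.5 CPM in the IL27v pair, and Plk1, a mitotic kinase, at 34.4 and 31.5 CPM in EV against 50.5 and 59.9 CPM in IL27v.

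For the remaining lists the members with both IL27v libraries above, and those with both below, numbered 3 and 0 of 20 DNA replication genes, 3 and 1 of 16 BCL2 family genes, 2 and 3 of 20 hypoxia and glycolysis genes, and 2 and 3 of 16 matrix proteases. For the integrated stress and unfolded protein responses these were 6 and 3 of 22 genes, and for NRF2 targets and metallothioneins 5 and 0 of 15. Tubulins had 1 and 0 of 13, and cytosolic ribosomal proteins 1 and 0 of 30. Among tissue markers the counts were 2 and 1 of 12 for adipocytes, 3 and 3 of 8 for nerve and 0 and 2 of 11 for pericytes and smooth muscle. The identity lists had 0 and 0 of 6 tested prostate genes, 3 and 0 of 16 epithelial genes and 2 and 4 of 15 mesenchymal genes.

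The direction of a gene's difference followed its GC content. Genes were put in 5 equal groups by the GC content of their longest transcript. In the group of lowest GC content, 17.1 to 43.3%, both IL27v libraries were above both EV libraries for 5.39% and below for 20.9%. In the group of highest GC content, 54.8 to 78.3%, they were above for 36.8% and below for 3.34%. The median log2 difference went from -0.29 in the first of these to 0.46 in the second. Genes higher at an unadjusted p under 0.05 had a median GC content of 56.5%, and those lower 43.5%, around 49.0% for all genes. Junb has 62.6% and Tpgs1 65.3%, while Mme has 38.0%. With the GC trend of each library modelled, the test again called 0 genes in either direction.

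**Figure D4:**
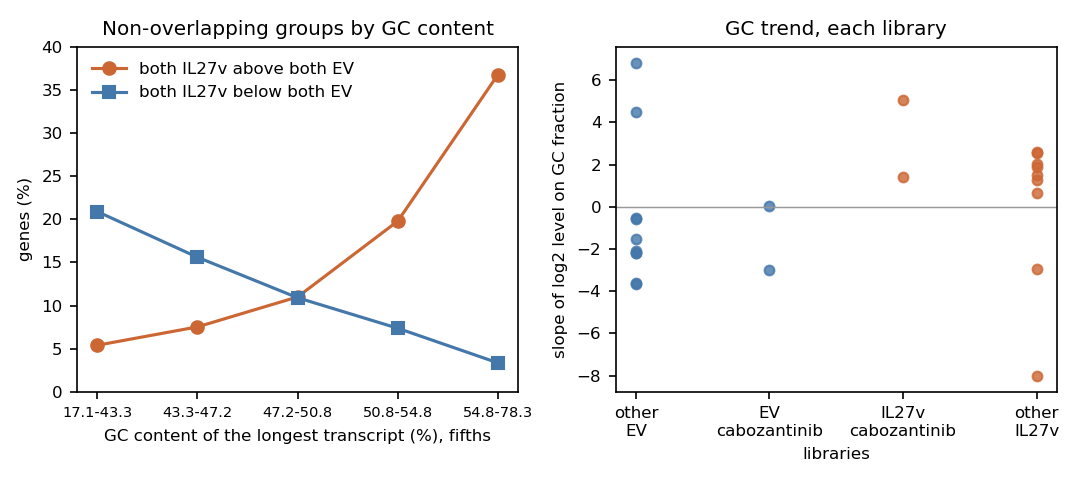
Left, share of genes whose vector groups do not overlap, in 5 equal groups of genes by GC content of the longest transcript. Right, slope of log2 level on GC fraction in each library, where the cabozantinib libraries lie at 0.04 and -3.01 for EV and at 1.43 and 5.07 for IL27v.

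Whether the vector difference under cabozantinib departs from that in other ex vivo conditions was tested as an interaction in the same fit. Against media alone 5 genes passed (0.0205% of those tested, all higher) and 0 were lower (0.0%), with 7.66% of genes at an unadjusted p under 0.05. DESeq2 called 515 higher (3.05%) and 43 lower (0.255%) in this contrast. The named genes among the 5 are Junb, Lmtk3, a brain-enriched kinase-like gene, Prag1, a pragmin pseudokinase, and Sf3b4, a splicing factor subunit. In media Junb was at 4.95 and 30.4 CPM in the EV pair and 0.27 and 0.82 CPM in the IL27v pair, the opposite order to that under cabozantinib. The interaction was 9.90 ± 1.55 (SE) on the log2 scale, with an adjusted p of 0.04997. Sf3b4 (chr3:96172332-96177564) was at 76.2 and 119.8 CPM in EV against 29.2 and 45.7 CPM in IL27v in media. Under cabozantinib it was at 63.3 and 59.1 CPM in the EV pair and 166 and 171 CPM in the IL27v pair. Its interaction was 2.85 ± 0.46 (SE), again with an adjusted p of 0.04997. The slope on GC fraction was -8.01 and -2.96 in the IL27v media libraries, and no gene passed in this contrast with the GC trend modelled, with RLE size factors, with a filter of 1 CPM in 4 libraries, with either replicate block, or without IL27v cabozantinib replicate 1, IL27v cabozantinib replicate 2 or EV cabozantinib replicate 1. Without EV cabozantinib replicate 2, or without IL27v docetaxel replicate 1, 1 gene passed.

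Against cabozantinib plus IL-27, 1 gene was called lower (0.00409%) and 0 higher (0.0%). This was Vopp1 (chr6:57727807-57825159), which encodes a vesicle protein. Under cabozantinib it was at 25.1 and 45.0 CPM in EV against 42.3 and 34.4 CPM in IL27v, groups that overlap. With IL-27 added it was at 2.53 and 1.71 CPM in the EV pair and 32.6 and 33.2 CPM in the IL27v pair. The interaction of -3.83 ± 0.52 (SE), with an adjusted p of 0.026, thus came with low EV libraries of the combined exposure. No gene was called lower without IL27v cabozantinib replicate 1, IL27v cabozantinib replicate 2, EV cabozantinib replicate 2 or IL27v docetaxel replicate 1, nor with a replicate block over all libraries or in the cabozantinib libraries. Without EV cabozantinib replicate 2, 1 gene was called higher instead. In this contrast 429 genes (1.76%) had an unadjusted p under 0.05, and DESeq2 called 10 higher (0.052%) and 10 lower (0.052%). Against the mean of the other conditions 0 genes passed (0.0%) by edgeR, with 438 at an unadjusted p under 0.05 (1.79%), and DESeq2 called 7 higher (0.0347%) and 6 lower (0.0297%).

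**Figure D5:**
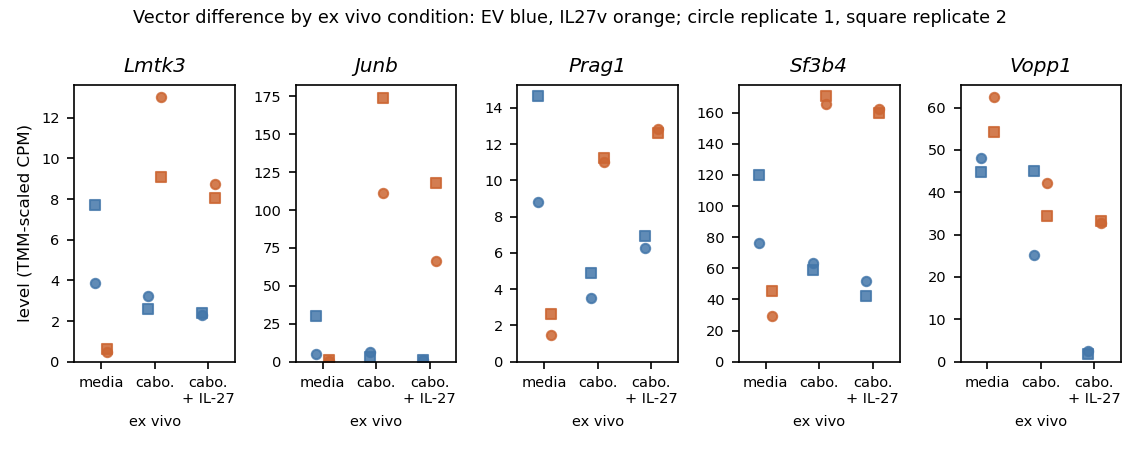
Level of the 5 named genes that passed an interaction test, in TMM-scaled CPM, by ex vivo condition, with EV in blue, IL27v in orange, circles for replicate 1 and squares for replicate 2. Junb, Lmtk3, Prag1 and Sf3b4 have IL27v below EV in media and above it under cabozantinib, and Vopp1 is low only in the 2 EV libraries with cabozantinib plus IL-27 among those drawn.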

How the data were processed

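RNA from 23 tumour libraries was read by stranded poly(A) sequencing, and the 4 libraries with cabozantinib alone are described here. The authors deposited 1 table of estimated counts for 55401 Ensembl genes. Cutadapt, HISAT2, StringTie and DESeq2 and the build GRCm38 are named per the submitters' processing notes, without versions or settings. The deposited estimated counts are whole numbers but not plain fragment counts: 143 genes have the same nonzero count in all 23 libraries, and 31.7 to 34.4% of counts from 1 to 40 in the 4 libraries are multiples of 4 rather than the 25% of evenly spread values. Dispersion, and so every p-value, depends on this step. Whether counting used strand is not given in the sources used here, so near copies (Hsp70, histone, MHC and granzyme genes) and overlapping genes are uncertain.

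Counts were tested with edgeR 4.0.16 (R 4.3.3) by quasi-likelihood, with TMM scaling and filterByExpr by group. All 23 libraries and 12 groups were fitted, which left 24440 genes and 11 residual degrees of freedom, with a biological coefficient of variation of 0.623. Benjamini-Hochberg adjusted p under 0.05 counted as a call, and the SE was the log2 difference divided by the root of F. With 2 libraries against 2, an exact two-sided permutation test cannot go below 0.333, so none was used. A gene at 0 in a group was compared with a floor of 3 counts per library. Alternatives were DESeq2 1.42.0, RLE factors, other filters, replicate blocks, counts divided by 4, a GC offset, these libraries alone and left-out libraries. The script was tested on simulated data. Symbols came from GENCODE M21 for 55141 genes, and promoters from RefSeq.

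The comparison and the 45 lists were chosen with earlier results of these data known. Genes named are first the 15 of smallest p per direction with at least 1 CPM, a symbol and vector groups that do not overlap. The others are 4 fixed and up to 6 further members of smallest p per list, and the called genes. In the text, higher and lower without a test describe libraries that do not overlap.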

Additional observations from a re-analysis of the deposited data

Results flagged for a closer look

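For 5 genes the vector difference under cabozantinib differed from that in media by an interaction test, and for 1 gene from that with cabozantinib plus IL-27. All values are log2 differences between 2 vector differences, with Benjamini-Hochberg adjusted p from edgeR's quasi-likelihood test. Against media they were 5.32 ± 0.77 (SE) for Lmtk3, 9.90 ± 1.55 for Junb, 3.92 ± 0.62 for Prag1, 2.85 ± 0.46 for Sf3b4 and 14.59 ± 2.29 for the unnamed gene ENSMUSG00000118642, each with an adjusted p of 0.04997. Lmtk3 was at 3.89 and 7.71 CPM in the EV media libraries and at 0.48 and 0.63 CPM in the IL27v media libraries. Prag1 was at 8.80 and 14.6 CPM and at 1.46 and 2.61 CPM in the same libraries. For all 5 genes called against media, the IL27v media libraries were the lowest of the IL27v libraries. Against cabozantinib plus IL-27 the value was -3.83 ± 0.52 for Vopp1, with an adjusted p of 0.026. All 5 calls against media were lost with either replicate block, RLE size factors, the GC offset, counts divided by 4, a filter of 1 CPM in 4 libraries or only the libraries compared. Against cabozantinib plus IL-27, 0 genes were called with either replicate block.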

How the results depend on the processing

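With 2 libraries a side the counts of calls moved with the processing, and the cause was not tested. For the vector difference, 0 genes were called with RLE factors, a filter of 1 CPM in 4 libraries, counts divided by 4 or a GC offset. Without a filter 406 were called, in these libraries alone 15, and by DESeq2 197. Against media the 5 calls became 0 with RLE factors, the 1 CPM filter, counts divided by 4, the GC offset or only the libraries compared, 829 without a filter and 558 by DESeq2. Against cabozantinib plus IL-27 the 1 call became 126 without a filter, 31 in only the libraries compared and 20 by DESeq2. Against the other conditions the counts were 82 without a filter and 13 by DESeq2. Leaving out 1 library at a time, which included IL27v docetaxel replicate 1 because 27.25% of its counts fell on 1 gene, gave 0 to 4 calls for the vector difference, 0 to 1 against media, 0 to 1 against cabozantinib plus IL-27 (lower, but higher without EV cabozantinib replicate 2) and 0 to 4 against the other conditions. A left-out library leaves its group with 1, which is then assumed to vary like the other groups.

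The deviations of same-numbered cabozantinib libraries from their group means had r = -0.23 over 24440 genes. With 2 libraries a group, both pairs give this same value. A single such value cannot show whether equal numbers mark a shared animal or day. With a replicate block, over all libraries or in the cabozantinib libraries, 0 genes were called for the vector difference, 0 against media and 0 against cabozantinib plus IL-27. The crossed pairing, added after the data were seen, gave 0, 39 and 1 calls.

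Of the 74 genes tracked, 20 changed sign under at least 1 setting, and none of them passed the test of the vector difference. Over the left-out libraries the log2 difference ran from -1.86 to 3.30 for Irf7, -2.37 to 3.12 for Ifit3, -2.56 to 2.20 for Isg15, -3.45 to 2.57 for Mx1, -2.03 to 2.05 for Gbp2, -1.16 to 1.72 for Gbp3, -0.43 to 1.65 for Irgm1, -0.45 to 3.44 for Cd74, -0.19 to 1.64 for H2-K1, -7.12 to 0.38 for Cd3e, -6.12 to 0.048 for Cd8a, -4.48 to 1.83 for Cxcl9, -2.0001 to 0.997 for Cxcl10, -0.67 to 0.62 for Il27ra, -0.36 to 1.46 for Socs3, -5.14 to 2.11 for Gzmb, -0.41 to 0.40 for Col1a1, -0.35 to 0.42 for Kdr, -0.22 to 0.20 for Axl and -0.25 to 0.61 for Vopp1. In 15 of the 74 this followed from leaving out IL27v replicate 2. With the replicate block in the cabozantinib libraries, and with the crossed pairing, Isg15 was at -0.056 and -0.052, Mx1 at -0.31 and -0.30, Cxcl9 at -0.95 and -0.92, Cxcl10 at -0.49 and -0.49, Gzmb at -1.03 and -1.02 and Axl at -0.0048 and -0.0048. With the block over all libraries Cxcl10 was at -0.17 and Col1a1 at -0.028. With the GC offset Col1a1 was at -0.70 and Axl at -0.30. Without a filter Col1a1 was at -0.0008 and Axl at -0.0087, and Axl was at -0.0148 with RLE factors and by DESeq2. At 2-fold in place of 4-fold, 7541 genes differed between the IL27v replicates and 7692 between the EV replicates. On the forward strand alone the interferon element letters were in 3.98% of all promoters, 26.1% of the interferon list and 45.5% of the GTPases.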

Other observations

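Over all 6 conditions, 13 genes separated the 12 EV from the 11 IL27v libraries without overlap, and they are named here after their values were seen. Lower in every IL27v library were Bgn, the matrix proteoglycan biglycan (1821 to 3162 CPM in EV, 642 to 1740 CPM in IL27v), and Flt3, a receptor tyrosine kinase (9.33 to 18.05 CPM in EV, 4.45 to 8.74 CPM in IL27v). The same held for Trit1, a tRNA-modifying enzyme (25.8 to 37.6 CPM in EV, 14.4 to 22.99 CPM in IL27v), for Col4a6, and for Mme and Tdrkh. Higher in every IL27v library were Rbm15b, an RNA-binding protein (29.4 to 50.1 CPM in EV, 51.8 to 75.1 CPM in IL27v), and mt-Nd5, a subunit of complex I (248.5 to 1026 CPM in EV, 1070 to 2465 CPM in IL27v). The others higher were Ppp1r14c, 6530402F18Rik and the mitochondrial tRNA genes mt-Ta, mt-Tn and mt-Tw.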
